A study of Canis lupus familiaris with 22 samples.

Results

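Interferon-stimulated genes were examined in naturally occurring invasive urothelial carcinoma (iUC) and normal bladder of dogs. The list held 45 gene names that stand for 44 genes, since DDX58 and RIGI name the same gene, and a gene was measured where a probe set of the array named it and no other gene. By this rule 37 of the 44 genes were measured, by 69 probe sets, among 15115 genes in all. The 7 genes without such a probe set were IFIT1, IFIT3, OASL, BST2, LGALS3BP, SP110 and RIGI, and they are only named here.

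Each sample was hybridised to 1 Affymetrix Canine 2.0 array, on which sets of short probes report transcripts. The 18 iUC samples were high grade tumours of pet dogs, taken at cystoscopy before any therapy and with histopathology done. The 4 normal bladder samples came from age-matched healthy dogs that bore no tumour. All samples were pieces of tissue kept in Trizol, so each holds a mixture of cell types, and fewer cells of a type and less RNA per cell cannot be told apart. The study set iUC against normal bladder to find genes whose expression differs in the tumours.

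Interferons are secreted proteins that cells release when they sense viral or misplaced nucleic acid. They bind receptors on the same or neighbouring cells, the receptors activate the kinases JAK1, JAK2 and TYK2, and these activate STAT proteins. STAT2 and IRF9 belong to the factor that switches on the interferon-stimulated genes, whose proteins bind viral RNA, block translation, tag proteins with ISG15 or raise antigen presentation. In tumours these genes are read as a trace of interferon signalling in the cancer cells, the immune cells or both.

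The deposited values are log2 values centred on each probe set's median over the 22 arrays, so a value of 0 is the middle sample of that probe set and says nothing about how strongly a gene is expressed. Probe sets of the same gene were averaged. A gene was called where limma gave an adjusted p of 0.05 or below and the fold was 2 or more, and "rose" and "fell" are used only of called genes. The iUC arrays lay in separate sets by the signal of 17 Tag control probe sets, which report no dog gene. This signal was between -0.13 and 0.13 on 11 arrays (lower Tag) and between 0.28 and 0.46 on 7 arrays (higher Tag). The controls for GAPDH and actin averaged between -0.08 and 0.25 on the lower Tag arrays, between -1.13 and -0.58 on the higher Tag arrays and between -0.34 and 0.38 on the normal arrays. Relations across tumours are therefore given within each set. Markers of smooth muscle averaged 2.92 to 4.62 in the normal samples and -0.66 to 1.5 in iUC, where 8 of 10 fell. Markers of urothelium averaged -3.25 to -0.34 in the normal samples and -1.29 to 0.73 in iUC, where 7 of 11 rose. The part of this difference in tissue make-up in the results below was not tested.

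Of the 37 interferon-stimulated genes, 9 rose in iUC, 0 fell and 28 were not called. The 9 were ISG15, IFI44, DDX60, USP18, IFIH1, OAS1, CMPK2, IFIT2 and IRF7, with rises from 1.25 to 2.34 on the log2 scale. Over all genes limma called 3.68% higher and 8.64% lower. An unpaired test of each gene without limma's moderation called 6 members higher and 0 lower after adjustment, against 522 and 1280 of all genes. At an unadjusted p under 0.05 limma gave 21 members upward and 1 downward. No share of all genes at the unadjusted p is given, here or below, so these counts cannot be set against a background. At the adjusted p alone, 14 of the 37 passed upward and 0 downward, against 18.2% and 17.5% of all genes, and the further genes were OAS3, STAT2, PARP12, DHX58 and ADAR. The difference between the group means was above 0 for 34 of the 37, against 56.7% of all genes. Its median was 0.83 over the members and 0.08 over all genes. At least 12 of the 18 iUC samples lay above every normal sample for 24 members (64.9%), against 21.9% of all genes. For CMPK2 and IRF7 all 18 did, which is 2 of 37 members against 3.22% of all genes, and all 18 lay below every normal sample for 0 members against 4.47% of all genes. The interferon-stimulated genes of the tumours therefore stood mostly above those of normal bladder. The share that did so in every tumour, 5.41%, was near the 3.22% of all genes.

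**Figure D1:**
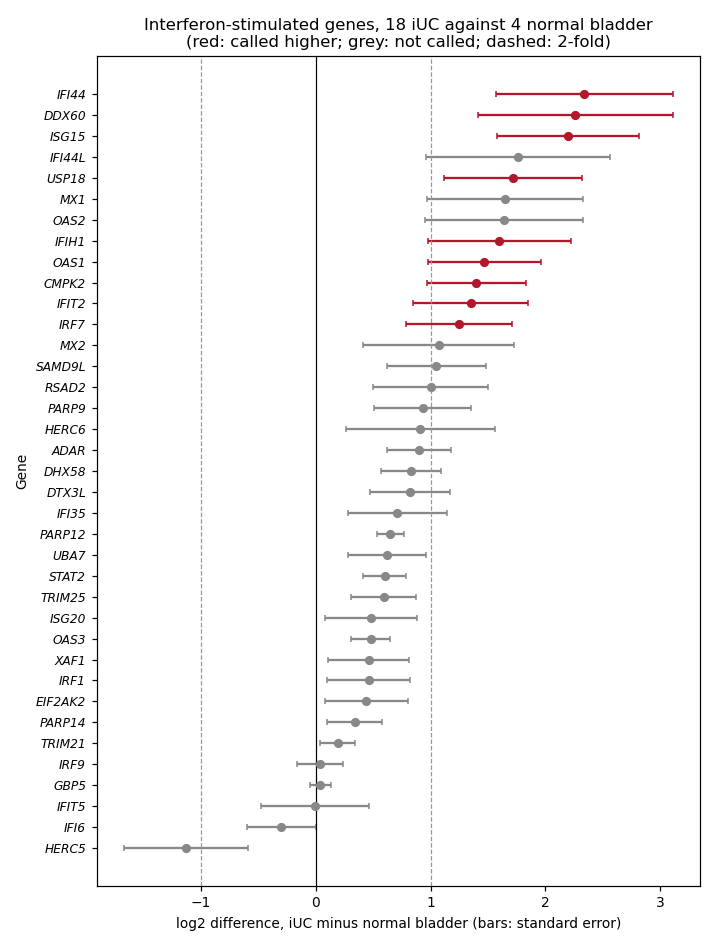
Difference of group means on the log2 scale (x axis, iUC minus normal bladder) for the 37 interferon-stimulated genes (y axis), with standard errors from limma as bars; red points are the 9 called genes and dashed lines mark a fold of 2. IFI44 had the highest difference at 2.34, and HERC5, IFI6 and IFIT5 are the 3 genes below 0.

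The calls depended on the 4 normal samples and on the normalization. Without normal bladder 1, 2, 3 or 4, the count of members that rose was 4, 3, 1 and 1, beside 4.74%, 3.82%, 2.18% and 1.97% of all genes, and it was 1 (2.06% of all genes) with normal bladder 3 and 4 averaged. ISG15 was called in each of the fits that left out a normal sample, CMPK2 without normal bladder 1 or 2, OAS1 and IFI44 without normal bladder 1, and IFIH1 without normal bladder 2. Scaling to the 75th percentile gave 14 members (5.34% of all genes) and array weights 19 (7.05%), while 12 rose in the lower Tag tumours alone (5.23%) and 10 in the higher Tag tumours alone (7.16%). After quantile normalization limma called 0 members and 1.95% of all genes higher, with 13 members upward at an unadjusted p under 0.05, a difference of 1.77 for ISG15 (adjusted p = 0.103) and a median difference of 0.91. The end of the array label was shared by all iUC samples and normal bladder 1, and differed for the other 3 normal samples. Against normal bladder 1 alone, which leaves out the spread of the controls, 33 of 37 differences were above 0 and the median was 0.98. The share and median of all genes against this array are not given. A shift of all genes on it therefore cannot be told apart from a difference of the members. When the ending entered the limma fit as a block, 0 members and 0.0992% of all genes were called higher, with 2 members upward at an unadjusted p under 0.05.

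ISG15 is a small ubiquitin-like protein that is attached to other proteins after interferon exposure, and 5 further members belong to its attachment, its removal or the same enzyme families. ISG15 was -2.61, -2.07, -1.86 and -1.71 in normal bladder 1 to 4, and from -1.86 to 3.02 in iUC with a median of 0.27. In log2 units it rose by 2.20 (standard error 0.62, limma adjusted p = 0.00941), and 17 of 18 iUC samples were above the highest normal sample. USP18, the protease that removes ISG15 and restrains the interferon receptor, was -1.42, -1.52, -1.41 and -1.21 in the normal samples and from -1.43 to 2.67 in iUC with a median of 0.45. Its rise was 1.72 (standard error 0.60, adjusted p = 0.0314), with 16 of 18 tumours above every normal sample, and it was 1.54 (adjusted p = 0.0623) in the lower Tag tumours alone. Both genes were thus low in all 4 normal bladders and ranged over more than 4 log2 units among tumours.

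UBA7, the enzyme that activates ISG15, had a difference of 0.62 (adjusted p = 0.152), and TRIM25, a ubiquitin ligase that acts on the RNA sensor RIG-I, one of 0.59 (adjusted p = 0.0967). The TRIM25 value was 0.93 (adjusted p = 0.00354) in the lower Tag and 0.06 (adjusted p = 0.772) in the higher Tag tumours. HERC6, the ligase thought to attach ISG15 in mice, was -0.68, -0.36, -0.11 and -0.64 in the normal samples and from -2.30 to 2.30 in iUC with a median of 0.68, with 4 tumours below and 11 above all normal samples. HERC5, the main ISG15 ligase in humans, was 0.38, 3.55, 0.57 and 0.42 in normal bladder 1 to 4, and from -0.92 to 2.12 in iUC with a median of -0.19. The difference of -1.13 (standard error 0.54, adjusted p = 0.0994) was the lowest of the 37, and without normal bladder 2 it was -0.35 (adjusted p = 0.598). In 14 of 18 tumours HERC5 lay below every normal sample and in 0 above all of them, unlike the ISG15 and USP18 values.

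**Figure D2:**
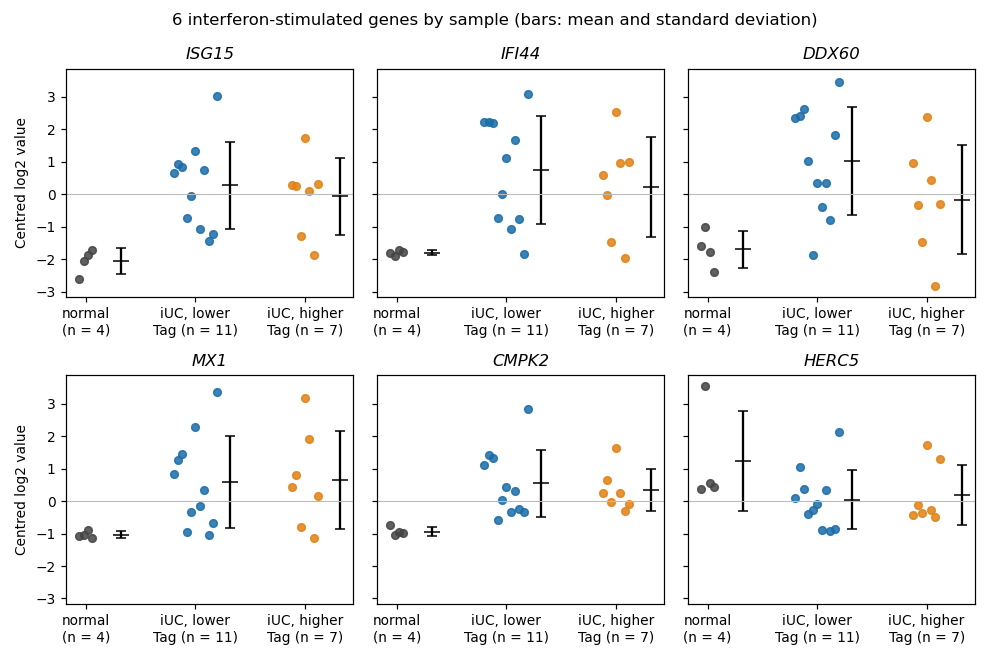
Centred log2 values (y axis) of 6 interferon-stimulated genes in the 4 normal bladder samples, the 11 iUC samples with lower Tag signal and the 7 with higher Tag signal (x axis); each point is a sample and the bars give the mean and standard deviation. Normal samples lie close together for IFI44 (-1.89 to -1.71), MX1 (-1.15 to -0.89) and CMPK2 (-1.06 to -0.75) while tumours spread widely, and for HERC5 normal bladder 2 stands at 3.55.

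The cytoplasmic sensors of double-stranded RNA and their relatives had 3 measured members. DDX60, a helicase linked to RIG-I signalling, was -1.61, -1.01, -1.77 and -2.40 in the normal samples, and -2.84 to 3.45 in iUC with a median of 0.40. It rose by 2.26 (standard error 0.85, adjusted p = 0.0424), and 15 tumours were above and 1 below every normal sample. IFIH1, which encodes the sensor MDA5, was -2.13, -0.20, -1.47 and -2.03 in the normal samples and -2.61 to 2.86 in iUC with a median of 0.43, with normal bladder 2 well above the other 3. Its rise was 1.60 (standard error 0.62, adjusted p = 0.0490), and 12 tumours were above and 1 below every normal sample. For both genes the call was lost when only the higher Tag tumours were compared with normal bladder, with a difference of 1.53 (adjusted p = 0.110) for DDX60 and 0.77 (adjusted p = 0.290) for IFIH1. DHX58, which encodes LGP2 and tunes both sensors, ran from -0.80 to -0.38 in normal bladder and from -0.49 to 1.58 in iUC. At 0.83 (adjusted p = 0.0168) it passed the test but was under 2-fold, and 17 of 18 tumours were above every normal sample.

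The OAS enzymes make the messenger that activates RNase L, PKR (EIF2AK2) halts translation on viral RNA, and ADAR edits double-stranded RNA. OAS1 was -1.07, -1.17, -1.14 and -1.31 in the normal samples and from -1.60 to 2.39 in iUC with a median of 0.36. It rose by 1.47 (standard error 0.49, adjusted p = 0.0249), with 16 tumours above and 1 below every normal sample. OAS2 was -1.57, -2.30, -1.43 and -1.75 in the normal samples and from -3.40 to 1.98 in iUC with a median of 0.36. Its difference of 1.64 was larger than that of OAS1 but so was its error (standard error 0.69, adjusted p = 0.0666). OAS3 and ADAR passed the test under 2-fold, at 0.48 (adjusted p = 0.0326) and 0.90 (adjusted p = 0.0182), and EIF2AK2 was at 0.44 (adjusted p = 0.325).

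The IFIT proteins bind viral RNA ends, and the IFI genes were named for their induction by interferon. IFIT2 was -1.11, -0.59, -0.92 and -1.14 in the normal samples and from -0.97 to 2.41 in iUC with a median of 0.12. It rose by 1.35 (standard error 0.50, adjusted p = 0.0411), and 16 tumours were above every normal sample. IFIT5, its relative, had a difference of -0.01 (adjusted p = 0.989), with 5 tumours above and 6 below all normal samples, and this turned to 0.26 after quantile normalization and to 0.11 after scaling to the 75th percentile. Between the sets of tumours it had opposite signs, at 0.51 (adjusted p = 0.343) in the lower Tag and -0.82 (adjusted p = 0.0289) in the higher Tag tumours.

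IFI44 had the tightest normal values of the genes that rose, at -1.82, -1.89, -1.71 and -1.78, and ran from -1.96 to 3.08 in iUC with a median of 0.77. With a fold of 5.08 it rose by 2.34 (standard error 0.77, adjusted p = 0.0239), with 16 tumours above and 1 below every normal sample. IFI44L, the neighbouring gene of the same family, was -1.85, -0.77, -0.81 and -0.90 in the normal samples and from -1.68 to 3.47 in iUC with a median of 0.76. At 1.76 (standard error 0.80, adjusted p = 0.0850) it was not called, and 5 tumours lay within the range of the normal samples. IFI35 was at 0.71 (adjusted p = 0.192). IFI6, a mitochondrial survival factor, was at -0.30 (adjusted p = 0.433), and 9 tumours, all of them lower Tag, lay below and 0 above all normal samples. Its difference was -0.71 (adjusted p = 0.00932) in the lower Tag tumours and 0.34 (adjusted p = 0.182) in the higher Tag tumours, and -0.05 without normal bladder 4.

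MX1 and MX2 are dynamin-like GTPases that trap viral particles. MX1 was -1.07, -1.04, -0.89 and -1.15 in the normal samples and from -1.15 to 3.36 in iUC with a median of 0.39. The difference was 1.65 (standard error 0.68, adjusted p = 0.0634), and 15 tumours were above every normal sample although the gene was not called. MX2 was -0.93, 0.03, -0.97 and -0.96 in the normal samples and from -1.76 to 3.04 in iUC with a median of 0.44, and had a difference of 1.07 (adjusted p = 0.192). CMPK2, a mitochondrial nucleotide kinase encoded beside RSAD2, was -0.75, -1.06, -0.96 and -0.98 in the normal samples and from -0.58 to 2.83 in iUC with a median of 0.24. Its rise was 1.40 (standard error 0.43, adjusted p = 0.0167), and no tumour overlapped the normal samples. RSAD2, which encodes viperin and depletes nucleotides needed for viral RNA, was at 1.00 (adjusted p = 0.117).

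The other restriction factors were not called. SAMD9L, which slows translation, was at 1.05 (adjusted p = 0.0624) with 16 tumours above every normal sample, ISG20, an exonuclease, at 0.48, TRIM21, an intracellular antibody receptor, at 0.19, and GBP5, a guanylate-binding protein, at 0.04. Without normal bladder 1 or 2 ISG20 was at 0.99 and 0.18, and it was at -1.06 against normal bladder 1 alone. The PARP group, which modifies proteins with ADP-ribose, also had 0 of 4 called, at 0.93 for PARP9, 0.82 for its partner DTX3L, 0.65 for PARP12 and 0.34 for PARP14. PARP12 had the lowest adjusted p of all members (0.000455) with a fold of 1.57, and 17 of 18 tumours were above every normal sample.

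IRF7, the transcription factor that amplifies interferon production, was -0.49, -0.79, -0.62 and -0.87 in the normal samples and from -0.43 to 3.11 in iUC with a median of 0.45. It rose by 1.25 (standard error 0.46, adjusted p = 0.0383), and all 18 tumours were above every normal sample. STAT2 passed the test under 2-fold at 0.60 (adjusted p = 0.0164), while IRF1 was at 0.46 (adjusted p = 0.301) and IRF9 at 0.04 (adjusted p = 0.871). IRF1 was at 0.83 without normal bladder 1 and 0.22 without normal bladder 2, and at -0.63 against normal bladder 1 alone. The apoptosis-linked XAF1 was at 0.46 (adjusted p = 0.286).

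Other members also had values that depended on the set of tumours, and whether the sets differ was not tested. Against normal bladder, the lower and higher Tag tumours were at 2.17 (adjusted p = 0.00701) and 0.81 (adjusted p = 0.324) for OAS2, 1.41 (adjusted p = 0.0112) and 0.48 (adjusted p = 0.241) for SAMD9L, and 0.69 and 0.05 for EIF2AK2. HERC6 was at 1.27 and 0.33, MX2 at 1.41 and 0.55, UBA7 at 0.86 and 0.26, IRF1 at 0.71 and 0.08 and IRF9 at 0.26 and -0.29. For DHX58 (0.72 and 1.01) and TRIM21 (0.04 and 0.43) the higher Tag tumours had the larger difference.

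The tumours differed from each other far more than the normal samples did. The mean of the 37 members was -0.68, -0.55, -0.62 and -0.69 in normal bladder 1 to 4, a standard deviation of 0.064. In iUC it ran from -0.80 in iUC 13 to 1.92 in iUC 17, with a median of 0.22 and a standard deviation of 0.68. It was above the highest normal sample in 16 tumours and below the lowest in 1. After iUC 17 came iUC 6 at 1.05, iUC 2 at 0.94 and iUC 8 at 0.84, and at the low end iUC 5 stood at -0.56 and iUC 15 at -0.42. iUC 17 held the highest tumour value of 30 of the 37 members, and iUC 13 the lowest of 14.

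**Figure D3:**
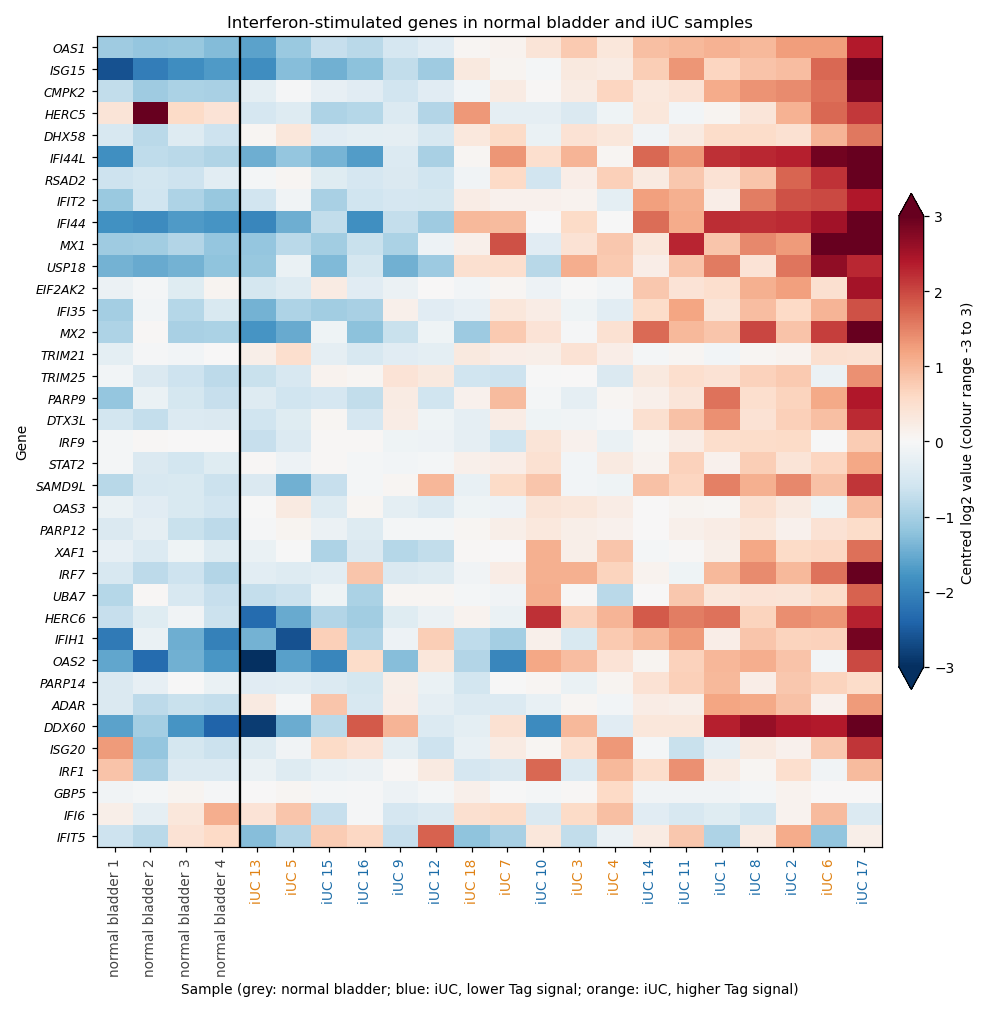
Centred log2 values (colour, blue below and red above 0, range -3 to 3) of the 37 interferon-stimulated genes (rows, ordered by their correlation with the other members in the 11 lower Tag tumours) in the 4 normal samples and in the 18 iUC samples ordered from the lowest to the highest member mean. Tumours run from iUC 13, with a member mean of -0.80, to iUC 17 at 1.92, and most rows change along this order except those at the foot, such as IFIT5, IFI6 and GBP5.

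The median standard deviation across the 18 tumours was 0.87 for the members and 0.34 for all genes, and 20 of the 37 members were among the 10% of genes that varied most. The largest were DDX60 (1.73), IFI44L (1.63), IFI44 (1.59), OAS2 (1.42), MX1 (1.41), HERC6 and MX2 (both 1.33) and ISG15 (1.25), and the smallest was GBP5 (0.16). Within the lower Tag tumours the median was 0.88 against 0.21 for all genes, and within the higher Tag tumours 0.65 against 0.18. Among the 4 normal samples the members were no more variable than other genes, with a median of 0.20 against 0.24. The standard deviation was larger in iUC than in normal bladder for 33 members, against 65.0% of all genes. Without iUC 17 the median over the tumours was 0.68.

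The members also varied together. The correlation of a member with the mean of the other 36 had a median of 0.88 (Pearson) in the 11 lower Tag tumours and 0.82 in the 7 higher Tag tumours. It was above 0.8 for 24 and 19 members, 15 of them in both sets. Among the closest were ISG15 (r = 0.97 in both sets, rho = 0.92 and 0.75), OAS1 (0.98 and 0.95, rho = 0.98 and 0.96), CMPK2 (0.97 and 0.92, rho = 0.94 and 0.93) and USP18 (0.91 and 0.98, rho = 0.90 and 0.96). Of the 666 pairs of members, 74.9% and 62.0% correlated above 0.5, against 11.6% and 17.1% of all pairs of genes. The median over members was 0.78 without iUC 17 in the lower Tag set and 0.72 without iUC 6 in the higher Tag set. The members of a set share the same arrays, so these correlations are a description.

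A few members kept apart. IFIT5 (r = -0.19 and 0.16), GBP5 (0.40 and 0.12) and IRF1 (0.41 and 0.21) were under 0.5 in both sets. IFI6 was at 0.13 in the lower Tag and 0.57 in the higher Tag tumours. OAS3 (0.85 and -0.23), ADAR (0.67 and -0.08) and TRIM21 (0.90 and 0.29) followed the other members in the lower Tag tumours alone, and whether the sets differ in this was not tested. HERC5, whose group difference was below 0, did vary with the others among tumours, at 0.95 and 0.61.

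**Figure D4:**
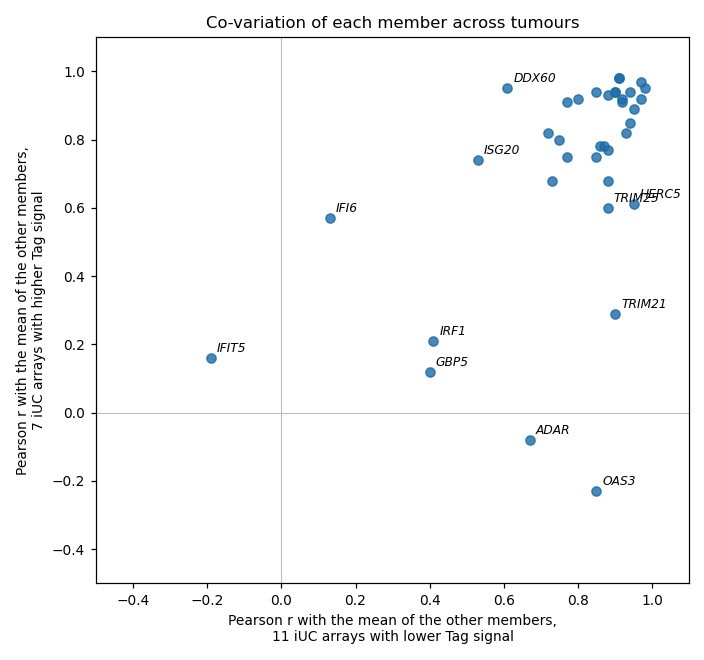
Pearson correlation of each of the 37 members with the mean of the other 36, in the 11 iUC samples with lower Tag signal (x axis) against the 7 with higher Tag signal (y axis); each point is a gene. Most points crowd at the upper right, while IFIT5, GBP5 and IRF1 are below 0.5 on both axes and OAS3 and ADAR are below 0 on the y axis.

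MX1, itself a member and chosen after the data had been seen, served as a single reference gene for the same question. Its correlation with the other 36 members had a median of 0.79 in the lower Tag tumours and 0.83 in the higher Tag tumours, and ranged from 0.00 (IFIT5) to 0.95 (ISG15) and from -0.46 (OAS3) to 0.98 (DTX3L). Of the 72 correlations, the permutation p before adjustment was under 0.05 for 30 of 36 in the lower Tag tumours and for 22 of 36 in the higher Tag tumours, and with Spearman's rho for 28 and 19. MX1 already followed the mean of the other members at r = 0.92 in both sets. The counts therefore restate the co-variation above and are no separate support for it. No share of all genes is given beside them. Without the 2 tumours farthest from the median of MX1, which were iUC 11 and 17 and iUC 6 and 13, the medians were 0.71 and 0.53, and in the higher Tag set the relation of IFIT2 (r = 0.82 to 0.17) and HERC5 (0.60 to -0.11) rested on those tumours.

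Members that lie next to each other in the reference gene order were often near-parallel. The correlation was 0.99 and 0.95 in the lower and higher Tag tumours for IFI44 and IFI44L, 0.95 and 0.98 for CMPK2 and RSAD2, 0.96 and 0.89 for PARP9 and DTX3L, and 0.84 and 0.97 for MX1 and MX2. HERC5 and HERC6 were at 0.72 and 0.53. OAS1 and OAS3 were at 0.81 and -0.10, and OAS3 and OAS2 at 0.82 and 0.42. Whether probes of related genes share signal was not tested.

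Probe sets of the same gene did not always move alike. Of the 69 probe sets, 51 correlated above 0.5 with the mean of the other members in both sets of tumours, 5 in 1 set and 13 in neither, and the median standard deviation was 0.93 for the 51 and 0.45 for the 13. IRF9, PARP12, PARP14, STAT2 and TRIM21 each had both kinds. The 5 probe sets of STAT2 had differences from 0.19 to 1.03, with correlations from -0.32 to 0.87 in the lower Tag tumours. For TRIM21, a probe set at 0.88 and 0.92 had a difference of -0.14, and a probe set at 0.39 and -0.38 one of 0.53. The gene values of these 5 genes therefore mix probe sets that follow the other members with some that do not. Calls of single probe sets by limma also split. Of the 69 probe sets 19 were called higher and 0 lower. The share called over all probe sets is not given, so this count cannot be set against a background. Both called and uncalled probe sets were held by 7 members. Of these 7, CMPK2, DDX60 and OAS1 were called as genes, while DTX3L, IFI35, STAT2 and UBA7 were not.

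Outside the list, the 10 genes whose values were most like the member mean, by the lower of their correlations in both sets of tumours, were UBE2L6, LGALS9, MYD88, TAPBP, RTP4, RNF213, B2M, CLEC12A, CMTM6 and TRIM22. UBE2L6, the conjugating enzyme that hands on ISG15, came first at 0.90 and 0.93, with a group difference of 0.21 (adjusted p = 0.700). MYD88, the adaptor of Toll-like receptors, was at 0.96 and 0.87, and B2M, the light chain of MHC class I, at 0.83 in both sets. TAPBP, which loads peptides on MHC class I, rose by 1.46 (adjusted p = 0.000564) and RTP4 by 1.63 (adjusted p = 0.0479), while CLEC12A, a myeloid lectin, fell by 1.38 (adjusted p = 0.00945). Only 7 of 15078 other genes correlated above 0.8 with the member mean in both sets.

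The upstream genes of the pathway were listed apart, from interferons to inhibitors, and 32 of 47 were measured. Of these, 0 rose and 0 fell by the limma call, and at the adjusted p alone 3 passed upward and 2 downward (8 and 3 at an unadjusted p under 0.05). The 4 measured interferons (IFNB1, IFNK, IFNG and IFNL1) had differences from 0.00 to 0.12 and standard deviations across tumours between 0.06 and 0.13. Among receptors, IFNAR1 of the type I receptor was at 0.39 (adjusted p = 0.168) and correlated with the member mean at 0.70 and 0.88. Of the kinases, TYK2 was at 0.49 (adjusted p = 0.00894) and JAK2 at -0.91 (adjusted p = 0.0196). The Toll-like receptor TLR9 was at 0.75 (adjusted p = 0.00390), the adaptor MAVS, on which RIG-I and MDA5 act, at 0.60 (adjusted p = 0.00261), and STING1, the adaptor of DNA sensing, at -0.81 (adjusted p = 0.00862). Against normal bladder 1 alone TLR9 was at 0.16, MAVS at 0.03, STING1 at -1.60, TYK2 at 0.21 and JAK2 at -1.37. The inhibitor SOCS1 was at 0.61 (adjusted p = 0.0669), and ran from -0.17 to 0.23 in the lower Tag and from 0.75 to 1.23 in the higher Tag tumours. Means of the lower and higher Tag tumours also lay apart for TYK2 (-0.01 and 0.43), TLR9 (-0.14 and 0.38) and JAK2 (0.14 and -0.79). They were closer for MAVS (0.00 and 0.07) and STING1 (-0.03 and 0.00). Over all tumours the largest spread was that of TBK1, the kinase that activates IRF3, at 1.01, and of IKBKE, its relative, at 0.91. The TBK1 means were 0.38 in the lower Tag and -1.23 in the higher Tag tumours. The value of 1.01 therefore includes the distance between the sets. Within the lower and higher Tag tumours the standard deviation was 0.59 and 0.68 for TBK1 and 0.97 and 0.74 for IKBKE. The largest within a set were IKBKE in the lower Tag tumours and the receptor gene IL10RB, at 0.76, in the higher Tag tumours.

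Genes known chiefly for their response to interferon gamma had 13 of 17 measured. WARS1, a tryptophan tRNA ligase, rose by 1.18 (adjusted p = 0.0115), and the adhesion protein ICAM1 fell by 2.01 (adjusted p = 0.000224), from 1.17 to 3.33 in normal bladder to between -1.0 and 1.13 in iUC. The chemokine CXCL10 and IDO1, which degrades tryptophan, had the largest spread, at 1.66 and 1.89, and both reached 4.64 in a tumour. They were not called, at 1.27 (adjusted p = 0.212) and 1.72 (adjusted p = 0.139). The peptide transporter TAP1 varied with the member mean at 0.93 and 0.76 and TAP2 at 0.89 and 0.78, and CXCL10 at 0.59 and 0.63.

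Markers of other cell types were set beside the member mean in the same tumours. The mean of 12 macrophage markers correlated with it at 0.67 in the lower Tag tumours (rho = 0.65) and 0.59 in the higher Tag tumours (rho = 0.43), and at 0.27 and 0.40 without the 2 tumours farthest from the median of the member mean in each set. The 11 T and NK cell markers were at 0.10 and 0.15 (rho = 0.31 and 0.04), and at 0.01 and 0.40 without the same tumours. Urothelium was at 0.48 and 0.08, smooth muscle at -0.38 and -0.50, and fibroblasts at 0.23 and 0.16. B and plasma cells were at 0.15 and 0.27, dendritic cells at 0.02 and 0.24, endothelium at -0.20 and 0.05, and neutrophils at -0.65 and 0.23. Without the same tumours urothelium was at 0.42 and -0.21, smooth muscle at -0.32 and -0.79, and fibroblasts at 0.04 and -0.01. B and plasma cells were then at 0.18 and 0.43 and dendritic cells at -0.13 and 0.39. Endothelium was then at -0.36 and 0.25, and neutrophils at -0.75 and 0.64. Macrophage markers averaged 0.22 to 1.38 in the normal samples and -0.78 to 0.78 in iUC. Of the 12, 4 were called lower, 0 higher and 8 were not called, with differences from -2.17 to 1.13. T and NK cell markers averaged 0.00 to 0.35 in normal bladder and -0.30 to 0.73 in iUC, with 0 of 11 called. The GAPDH and actin controls correlated with the member mean at -0.79 (rho = -0.69) in the lower Tag tumours, at -0.54 there without iUC 15 and 17, and at -0.13 (rho = -0.21) in the higher Tag tumours. In the lower and higher Tag tumours the standard deviation of an array was at -0.40 and -0.62 (rho = -0.45 and -0.25). The Tag signal was at 0.03 and -0.52 (rho = 0.24 and -0.14), and the array median at -0.28 and -0.42 (rho = 0.00 and -0.14). The part of cell types and of RNA or array quality in the spread of the members was not tested.

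**Figure D5:**
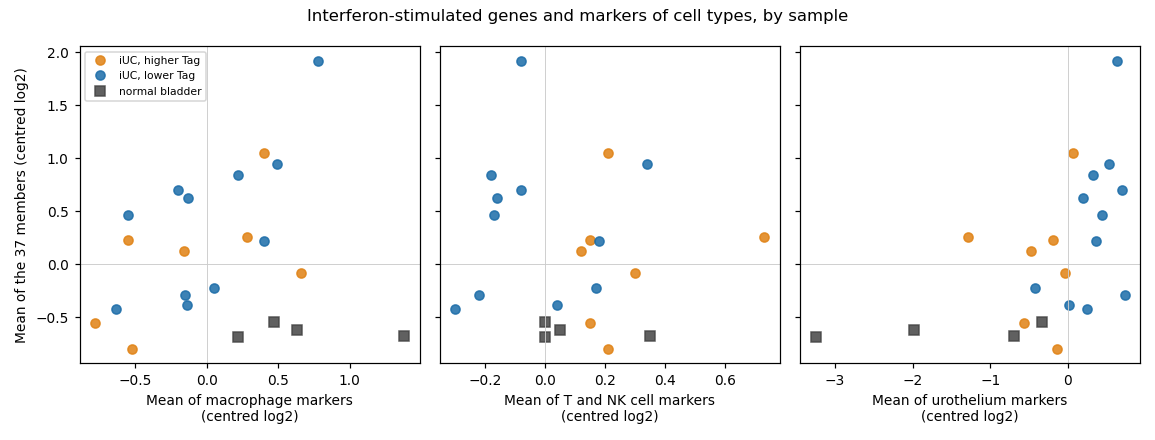
Mean of the 37 interferon-stimulated genes in each sample (y axis, centred log2) against the mean of macrophage, T and NK cell and urothelium markers (x axes, centred log2); squares are normal bladder and circles iUC, coloured by Tag signal. Normal samples are low on the y axis (-0.69 to -0.55) at macrophage means of 0.22 to 1.38. iUC 17 stands highest on the y axis at 1.92, with a T and NK cell mean of -0.08. Its macrophage mean of 0.78 is the highest of the iUC samples.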

How the data were processed

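The authors processed the arrays in GeneSpring GX 12.6.1 and deposited log2 values of 43035 probe sets, centred on each probe set's median over 22 arrays. The sources used here do not say how probes were summarised and arrays normalized. Centred values keep no level, so no filter on low expression could be applied. Array medians lay between -0.03 and 0.06. The number of arrays limits the precision. After 111 control probe sets were left out, 29254 of 42924 had 1 gene symbol in the platform annotation, and their mean was taken for each of 15115 genes. Samples of a group were separate biological replicates.

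All genes were fitted by lmFit and eBayes of limma 3.58.1 (R 4.3.3; 18 iUC against 4 normal bladder, no covariates), with Benjamini-Hochberg adjustment over 15115 genes. Genes were called at a fold of at least 2 and an adjusted p up to 0.05. In simulated data 82% of genes changed by 1.5 on the log2 scale and 100% of those changed by 2 were called, with 1 false call. The changed genes were picked at random from all genes, with independent noise at each gene's own spread. The members varied more across tumours than all genes did (median standard deviation 0.87 against 0.34). These rates therefore do not tell how often a changed member would be called. Correlations with MX1 were tested by permutation (exact for 7 samples, 100000 resamples for 11), within iUC sets parted at a Tag mean of 0.2, and other correlations are descriptions. MX1 was chosen as the reference gene after the data had been seen. Values by sample are given for called members, the 8 members of largest spread and HERC5; other named genes are the called and most variable of their list, those that passed the adjusted p alone, and a few named after their values were seen. The members, lists and tests were chosen with earlier results of these data known. Alternatives were scaling to the 75th percentile, quantile normalization, other probe set rules, array weights, an unpaired test of each gene without moderation, blocks and samples left out.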

Additional observations from a re-analysis of the deposited data

Results flagged for a closer look

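Among 92 values examined in the 4 normal samples (the members and their mean, the pathway and interferon gamma lists and the genes most like the members), 8 had a normal sample far from the other 3, where chance gives about 1 in 20. Of the members, HERC5 stood at 3.55 in normal bladder 2 against 0.38 to 0.57 in the others, MX2 at 0.03 in normal bladder 2 against -0.97 to -0.93, and IFI44L at -1.85 in normal bladder 1 against -0.90 to -0.77. In normal bladder 1, TLR9 stood at -0.09, MAVS at 0.0, IRF5 at 2.12 and WARS1 at -0.22. TAP2 stood at -0.08 in normal bladder 2. The cause of these single values was not tested.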

How the results depend on the processing

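The median difference of the members kept its sign in each alternative, from 0.55 in the higher Tag tumours alone to 1.06 with array weights, and 0 members were called lower in any of them. The number called higher did not hold: against 9 in the reported fit it was 0 after quantile normalization, 14 after scaling to the 75th percentile, 19 with array weights, 1 with normal bladder 3 and 4 averaged (their correlation over genes was 0.934), 0 with a block for the label ending, 1 to 4 with a normal sample left out and 7 to 11 with a tumour left out. Replicate numbers did not pair the samples (correlations of -0.17, 0.06, -0.05 and 0.13). In the 8 samples that share numbers, 16 members were called without the replicate block, where 437 of all genes were higher and 1101 lower. With the block 12 members were called, where 215 of all genes were higher and 349 lower. Of the other lists, 34 genes were called in the reported fit, 15 with the replicate block, 18 with a block for the label ending, 27 to 35 with a normal sample and 33 to 36 with a tumour left out. The median spread of 0.87 was 0.99 after quantile normalization, 0.91 after scaling and 0.65 in the higher Tag tumours, and 0.68 to 0.90 with a tumour left out; the median correlation with the other members was then 0.78 to 0.90 and 0.72 to 0.92. Over all genes, 556 rose and 1306 fell (29.9% higher), against 295 and 431 after quantile normalization (40.6%) and 807 and 1080 after scaling (42.8%), which moved the median of all genes from 0.08 to 0.20 and that of the members to 0.95. Elsewhere these counts reached 15 and 389 with a block for the label ending, 215 and 349 with the replicate block, 1065 and 1344 with array weights and 1082 and 2623 in the higher Tag tumours. The causes were not tested, but only 4 normal samples carry each group difference, and the fits by label ending rest on 1 of them.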
